A study of Mus musculus with 9 samples.

Results

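Nrn1 encodes neuritin, a small protein held on the cell surface by a glycosylphosphatidylinositol (GPI) anchor. The gene was singled out because its RNA count was much higher in CD4+ T cells whose mice carried the Kdm6a deletion system than in those that did not, so that difference is described here without a test. It is 1 of 39017 genes in the deposited count table, and 1 of 146 genes of a T cell surface list that were abundant enough to be tested. The table holds 9 libraries of lymph node helper T cells, labelled CD4+, from male C57BL/6 mice. The 4 cKO libraries (numbered 2, 6, 7 and 8) came from animals with a floxed Kdm6a allele on their single X chromosome and 1 copy of CD4-Cre, a recombinase driven by the Cd4 promoter. The 5 WT libraries (1, 3, 4, 5 and 9) came from animals with the same floxed allele and no Cre, so Cre and loss of Kdm6a cannot be told apart by this comparison. Kdm6a encodes a demethylase that removes the repressive methyl mark on lysine 27 of histone H3. No stimulation is given in the labels, though "stim" is part of the table's name. They also do not say whether each library came from its own mouse, so p-values measure only the spread between these libraries, which may be partly technical.

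Neuritin was first studied in neurons, where its gene is switched on by electrical activity and its product promotes the growth of neurites and synapses. In the immune system it is known from regulatory T cells that carry Foxp3, from the follicular subset of those cells that restrains germinal centres, and from anergic CD4+ T cells, which have met antigen without costimulation and no longer respond fully. The protein is made with a leading signal peptide and a trailing signal that is exchanged for the GPI anchor, and it can also be released from the membrane.

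Nrn1 (ENSMUSG00000039114) lies on the minus strand of chromosome 13, from 36725361 to 36735131 of mm10 (GRCm38), with 5 annotated protein-coding transcripts in GENCODE M21. Its coding sequence is 429 bases long, or 143 codons with the stop codon, in the transcript that GENCODE pairs with RefSeq's curated one. The transcripts hold 4 distinct full coding sequences, and this one is in 1 transcript. The counts below are per gene and do not separate the transcripts. The first 300 bases are shown because they encode most of this form of the protein, and the capitals mark the start codon.
Nrn1, start of the coding sequence: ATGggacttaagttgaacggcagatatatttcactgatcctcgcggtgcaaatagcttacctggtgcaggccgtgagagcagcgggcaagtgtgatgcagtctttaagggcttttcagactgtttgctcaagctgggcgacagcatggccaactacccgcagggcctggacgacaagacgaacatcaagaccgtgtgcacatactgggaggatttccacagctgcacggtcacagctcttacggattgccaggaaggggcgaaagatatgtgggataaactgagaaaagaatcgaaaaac

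The transcripts of Nrn1 shared no stretch of 31 bases with those of its paralog Nrn1l, which encodes neuritin-like protein. Nrn1l itself had from 3 to 7 counts in the cKO libraries and from 6 to 10 in the WT libraries, too few to be tested. The neighbouring gene Fars2, which encodes the mitochondrial phenylalanyl-tRNA synthetase, runs into Nrn1 on the opposite strand, and 501 of the 2249 exonic bases of Nrn1 lie under its exons. The library kit keeps strand, but the strand setting of the counting is not given in the sources used here, so reads of that stretch could have been assigned to either gene or dropped. Fars2 was at 16.7 CPM ± 0.872 (SD, n = 4) in cKO and 17.1 CPM ± 0.901 (SD, n = 5) in WT, where CPM is counts per 1000000 counts of a library after scaling. Its log2 difference was -0.03 (SE 0.06, edgeR adjusted p = 0.740). Fars2 as counted was below Nrn1 in each of the 9 libraries. What the reads of the shared stretch add to either level was not tested.

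Nrn1 was higher in each cKO library than in any WT library. The cKO libraries 2, 6, 7 and 8 held 71.4, 106, 118 and 97.5 CPM, from 1694, 2552, 2464 and 2180 counts. The WT libraries 1, 3, 4, 5 and 9 held 28.3, 22.5, 31.4, 23.8 and 23.6 CPM, from 731, 525, 713, 505 and 619 counts. The groups did not overlap, and the lowest cKO library held 2.27 times the level of the highest WT library. The means were 98.2 CPM ± 19.8 (SD, n = 4) in cKO and 25.96 CPM ± 3.78 (SD, n = 5) in WT, a fitted log2 difference of 1.92 (SE 0.14), or 3.78-fold. The genotypes did not overlap in 15.9% of the 14693 genes tested, with all cKO libraries higher in 7.08%, and nothing is read from that share here, since Nrn1 was chosen on this contrast.

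**Figure D1:**
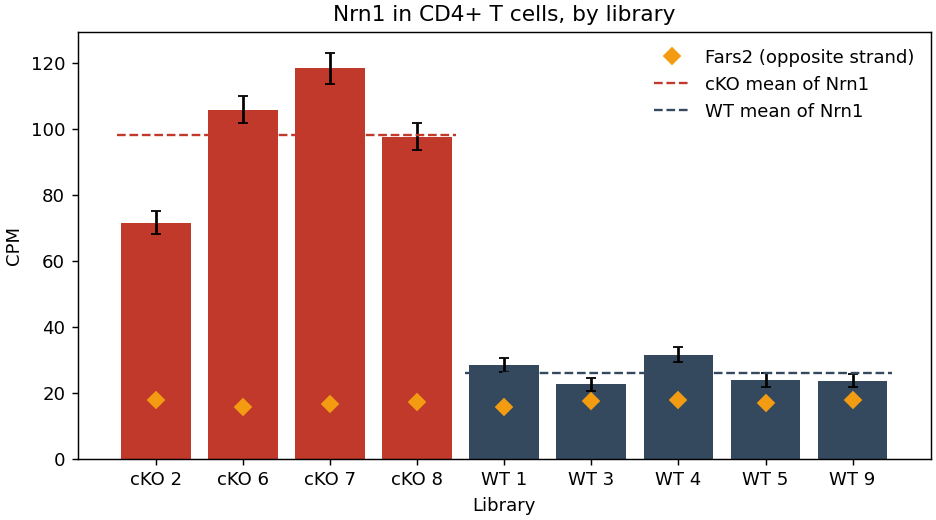
Nrn1 in CPM (bars) in each of the 4 cKO and 5 WT libraries, with exact Poisson 95% intervals of the counts as error bars, group means as dashed lines and Fars2, the gene on the opposite strand, as diamonds. The cKO bars run from 71.4 to 118 CPM and the WT bars from 22.5 to 31.4 CPM, while Fars2 stays between 15.6 and 17.8 CPM throughout.

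Within each genotype the libraries differed by more than counting allows. The coefficient of variation was 20.2% among cKO libraries, against 2.15% from counting alone, and 14.6% among WT libraries, against 4.07% from counting alone. In cKO the order from low to high was 2, 8, 6 and 7. The 95% interval of cKO 2 (68.1 to 74.9 CPM) lay below those of the other 3, those of cKO 8 (93.4 to 101.7 CPM) and cKO 6 (101.6 to 110 CPM) touched, and that of cKO 7 (114 to 123 CPM) lay above them. In WT, libraries 3, 9 and 5 had overlapping intervals, and so had libraries 1 and 4, which were higher. Only counting error is in these intervals, and reads that carry no molecular identifier are not independent.

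Of 4366 tested genes with at least the mean CPM of Nrn1, 0 had a larger log2 fold change, which describes the choice of the gene as much as the gene. Over all tested genes Nrn1 ranked 9th by log2 fold change. The same Nrn1 counts can be put on the scale of the T cell receptor complex, which is no separate evidence of the difference. Per 1000 counts of the CD3 chains (Cd3d, Cd3e, Cd3g and Cd247), Nrn1 had from 84.3 to 142 counts in cKO libraries and from 25.7 to 33.5 in WT libraries.

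Kdm6a, the targeted gene, was at 41.8, 42.7, 41.5 and 44.8 CPM in cKO 2, 6, 7 and 8, against 60.04 to 63.8 CPM in WT. Its reads come from the whole gene, and the labels do not name the floxed exon. Uty, the Y-linked paralog of Kdm6a, was at 43.05 CPM ± 1.10 (SD, n = 4) in cKO and 36.6 CPM ± 1.88 (SD, n = 5) in WT, and rose by 0.24 on the log2 scale (SE 0.05, edgeR adjusted p = 0.00695). Cd4 was at 957 CPM in cKO and 873 CPM in WT, and Cd3e at 238 and 248 CPM, so the defining genes of the labelled cell type were abundant in both. Total counts ran from 20587482 to 23820732 in cKO and from 21482927 to 26387488 in WT. Mitochondrial genes took from 2.42% to 2.72% of the counts in cKO, lowest in cKO 2, and from 2.31% to 2.46% in WT. Whether that share bears on the Nrn1 level was not tested.

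Per length of exon, Nrn1 stood in the upper part of the T cell surface genes in cKO and in the lower part in WT. Its level was 43.7 RPKM ± 8.81 (SD, n = 4) in cKO and 11.5 RPKM ± 1.68 (SD, n = 5) in WT, where RPKM is CPM per 1000 bases of merged exons. That placed it 44th of 146 surface genes in cKO and 87th in WT. By library the rank was 50, 40, 38 and 45 in cKO 2, 6, 7 and 8. In WT 1, 3, 4, 5 and 9 it was 83, 92, 80, 88 and 85. These ranks restate the same Nrn1 counts on another scale. Among all 14693 tested genes, from 6.56% to 12.9% were above Nrn1 in cKO libraries and from 30.8% to 39.5% in WT libraries.

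The neighbours in that order give a sense of the level. In cKO, Nrn1 stood beside Il21r (the IL-21 receptor, 45.7 RPKM ± 4.69), Notch2 (43.4 ± 5.64) and Slc3a2 (a chain of amino acid transporters, 41.9 ± 4.37; SD, n = 4 each), and differed from each of them by less than 1 SD of its own level. Slc2a1 (a glucose transporter), Sema4d and Clec2d, at 46.1, 45.98 and 41.0 RPKM, were as close. In WT it stood beside Il7r (the IL-7 receptor chain, 11.8 RPKM ± 1.63), Cd69 (an early activation antigen, 11.8 ± 4.41) and Ifngr2 (a chain of the interferon-gamma receptor, 11.4 ± 0.978; SD, n = 5 each), again within its spread, with Cd9, Sema4a and Slamf6 from 10.8 to 12.4 RPKM. The most abundant surface genes were far above it in both genotypes: Il2ra, which encodes the IL-2 receptor's alpha chain (CD25), was at 450 RPKM in cKO and 557 RPKM in WT, and Tfrc, the transferrin receptor and the fifth in order, at 257 RPKM in cKO and 287 RPKM in WT. Cd2, Ccr7 and Cd52 lay between them in cKO, and Cd2, Thy1 and Cd52 in WT. Nrn1 stood 43 places nearer the top in cKO, while Thy1, the most abundant GPI-anchored gene in WT, stood 18 places further down, at rank 21 in cKO against rank 3 in WT. Of the other 145 surface genes tested, 12 rose and 48 fell, with 15.8% of all tested genes called at edgeR adjusted p below 0.05, 7% higher and 8.82% lower in cKO. The balance of directions over all genes depended on the scaling, with 1028 genes higher in cKO and 1296 genes lower in cKO here, against 1265 and 1068 with upper-quartile scaling. Kit, the stem cell factor receptor, was the 1 surface gene with a larger log2 rise than Nrn1, at 1.94 (SE 0.28, edgeR adjusted p = 0.00172), at a level of 5.05 CPM in cKO and 1.33 CPM in WT. With falls counted as well, 3 surface genes had a larger absolute log2 change than Nrn1.

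**Figure D2:**
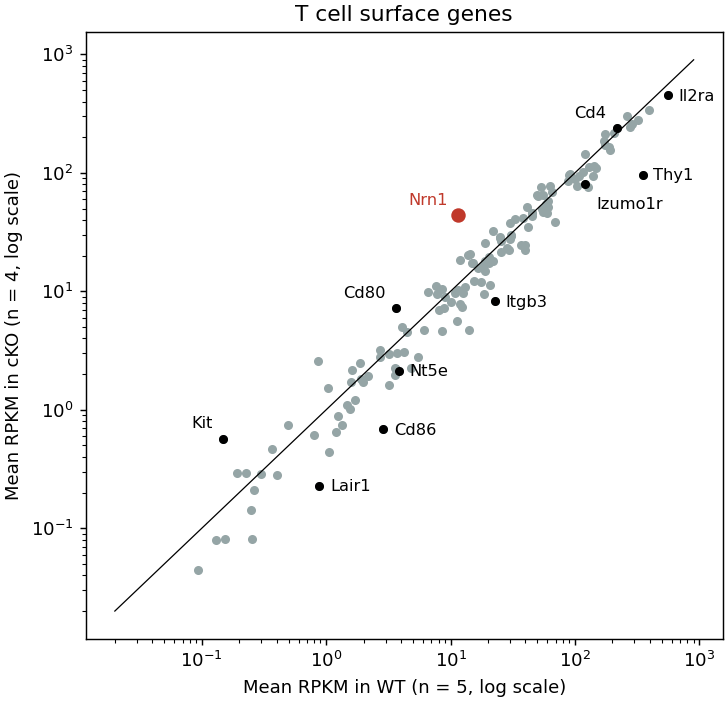
Mean level of the 146 tested T cell surface genes in cKO (vertical axis, 4 libraries) against WT (horizontal axis, 5 libraries), both in RPKM on log scales, with the line of equal level. Nrn1 (red) lies above the line at 43.7 RPKM in cKO and 11.5 RPKM in WT, while Thy1, at 95.8 RPKM in cKO and 350 RPKM in WT, lies below it.

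Among the other genes of GPI-anchored proteins, more fell than rose, as among the T cell surface genes in general. Of 75 further genes for GPI-anchored surface proteins, 74 were in the table and 36 were abundant enough to be tested. Of these, 13 fell, 5 rose and 18 did not pass the test, with a median log2 change of -0.19 against 0.001 over all genes tested. The share called was 50%, beside 15.8% of all genes tested. Like the other lists here, this one was chosen with earlier results of these data known, so nothing is read from its share. Of the 145 T cell surface genes, some of which are in both lists, 41.4% were called, also with a median of -0.19. Thy1, the surface glycoprotein Thy-1, had 328, 198, 320 and 301 CPM in cKO 2, 6, 7 and 8, and from 943 to 1210 CPM in WT. It was 72.6% lower in cKO (log2 -1.87, SE 0.14, edgeR adjusted p = 3.42e-05), with no overlap between the genotypes. In size this fall was close to the Nrn1 difference, in the other direction.

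Izumo1r and Nt5e, which encode folate receptor 4 and the ectonucleotidase CD73, mark the same anergic and regulatory T cells in which neuritin is known. Izumo1r was at 187 CPM ± 37.6 (SD, n = 4) in cKO and 282 CPM ± 39.8 (SD, n = 5) in WT, and fell by 0.59 (SE 0.14, edgeR adjusted p = 0.0151). Nt5e was at 18.3 CPM ± 5.08 in cKO and 32.9 CPM ± 8.94 in WT and fell by 0.86 (SE 0.21, edgeR adjusted p = 0.0213), a call that was lost without cKO 6 (edgeR adjusted p = 0.0679). In neither gene did the genotypes overlap. Cd48, a ligand of SLAM family receptors, Cd52 and the ADP-ribosyltransferase genes Art4 and Art2b also fell, with log2 changes of -0.41, -0.19, -2.10 and -0.83, as did Rtn4rl1, a relative of the Nogo receptor, at -0.57.

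The 5 GPI-anchored genes that rose besides Nrn1 did so by less. They were Alpl, an alkaline phosphatase, at 0.78 (SE 0.16, edgeR adjusted p = 0.0101), Ulbp1, a ligand of the receptor NKG2D, at 0.36 (SE 0.06, adjusted p = 0.00493), Bst2 (tetherin), Efna4 (an ephrin) and Cd24a. With 1 library left out, Cd24a kept its call only without WT 1 or WT 9. Bst2 kept its call only without WT 1, WT 5, cKO 7 or cKO 8, and Efna4 only without WT 1, WT 3, WT 5 or cKO 2. Ly6a, the gene for Sca-1, varied widely, at 173 CPM ± 141 (SD, n = 4) in cKO and 145 CPM ± 81.3 (SD, n = 5) in WT. Ly6e fell by 0.20 but lost its call when any 1 of 6 libraries was left out (edgeR adjusted p from 0.0702 to 0.125). The number that rose was 2 without WT 4 or without cKO 6, and 3 without WT 3, WT 9, cKO 7 or cKO 8. The number that fell was 8 without cKO 6, when calls over all genes also dropped, to 531 higher and 732 lower.

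**Figure D3:**
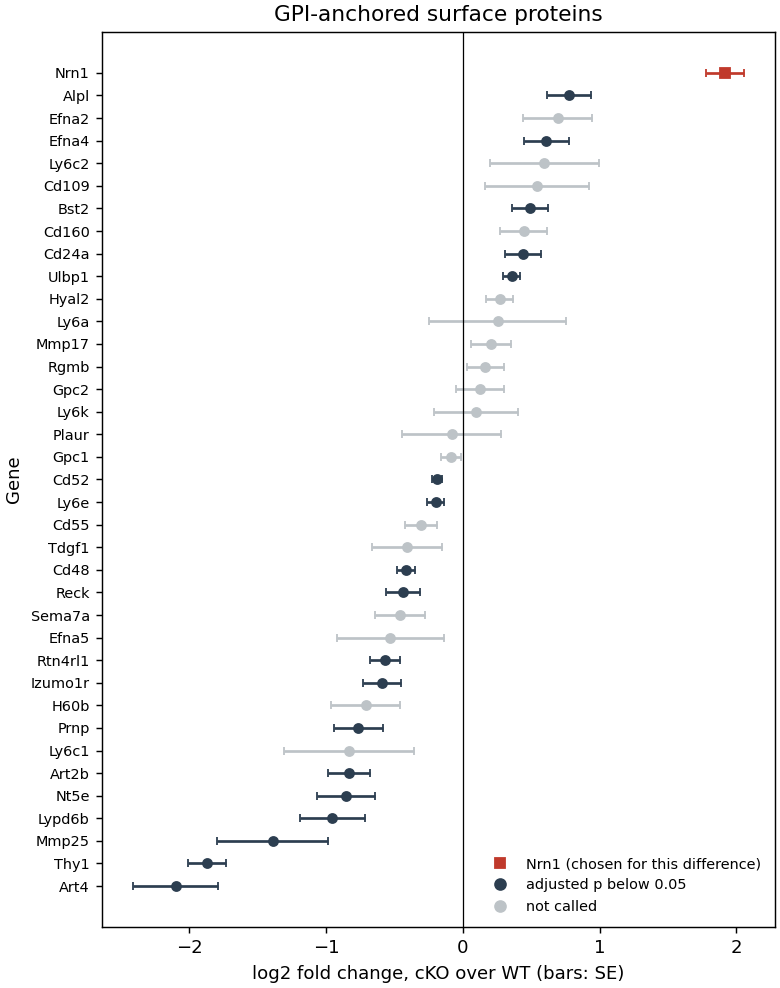
Log2 fold change, cKO over WT, with its standard error (horizontal axis) for Nrn1 and the 36 other tested genes of GPI-anchored surface proteins. Nrn1 (red square, 1.92) stands above the next gene, Alpl, at 0.78, and Thy1, at -1.87, and Art4, at -2.10, are at the other end.

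Among genes that build, attach, trim or release the anchor, changes were small. There were 32 tested, with 3 that rose, 2 that fell, 27 with no call and a median log2 change of -0.02. The share called, 15.6%, was close to the 15.8% of all genes tested. Pign, Pigf and Pigb, enzymes that add sugars or ethanolamine phosphate to the anchor or help to do so, rose by 0.18, 0.19 and 0.15. Pigx and Pigh, subunits of anchor-building enzymes, fell, at -0.21 and -0.23 (edgeR adjusted p from 0.0259 to 0.0411 for the 5). Each of these calls was lost when any 1 of several libraries was left out, from 4 libraries for Pigx to 8 for Pigf and for Pigh (edgeR adjusted p up to 0.117). By level the leading members were Pigs and Pigt, subunits of the transamidase that joins protein and anchor, and the cargo receptor gene Tmed10. Pigs was at 56.9 CPM in cKO and 58.7 CPM in WT, Pigt at 85.7 and 92.3 CPM, and Tmed10 at 120 and 134 CPM, and none of these differences passed the test with all libraries. Without WT 1, Tmed10 passed at -0.18 (edgeR adjusted p = 0.0305).

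Foxp3, the factor that defines the lineage, had 74.1, 92.03, 106 and 134 CPM in cKO 2, 6, 7 and 8, and 89.3, 105, 119, 94.6 and 106 CPM in WT 1, 3, 4, 5 and 9. The genotypes overlapped, with a log2 difference of -0.02 (SE 0.14, edgeR adjusted p = 0.953) whose sign depended on the libraries and scaling used. In bulk RNA, fewer cells of a type and less RNA per cell cannot be told apart. Of 32 tested genes of regulatory T cells, 9 fell, 1 rose and 22 had no call, a share called of 31.2% beside 15.8% of all genes tested, with a median of -0.13. This list too was chosen with earlier results known, so nothing is read from its share. The member that rose was Ikzf2, which encodes the transcription factor Helios, at 121 CPM ± 9.44 (SD, n = 4) in cKO and 88.4 CPM ± 4.25 (SD, n = 5) in WT (log2 0.46, SE 0.06, edgeR adjusted p = 0.000651). Those that fell included the TNF receptor gene Tnfrsf1b (-0.57), the ectonucleotidase gene Entpd1 (-1.24), the actin-capping gene Capg (-0.80) and Ebi3, a subunit of IL-35 (-0.67). Izumo1r and Nt5e, described above, are counted again among the 9. Il2ra, also a gene of activated cells, fell by 0.31 (SE 0.08, edgeR adjusted p = 0.0190), with 2181 to 2805 CPM in cKO and 2900 to 3489 CPM in WT. Ctla4 did not pass, at 219 RPKM ± 25.9 (SD, n = 4) in cKO and 206 RPKM ± 12.5 (SD, n = 5) in WT (log2 0.09, edgeR adjusted p = 0.449). Il2rb, another chain of the IL-2 receptor, was at 242 RPKM in cKO and 277 RPKM in WT. With 1 library left out, it was called lower only without cKO 2 (edgeR adjusted p = 0.0182). The summed level of the list, to which Il2ra contributes most, ran from 6018 to 7058 CPM in cKO and from 7128 to 7859 CPM in WT.

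Of 25 tested genes of follicular T cells, 2 rose, 0 fell and 23 had no call in edgeR, with a median of 0.005. The share called was 8%, beside 15.8% of all genes tested. At an unadjusted p below 0.05, 7 were higher and 3 lower in cKO, and DESeq2 called 1 lower. Bcl6, the factor that directs the follicular program, was at 4.78 CPM in cKO and 4.61 CPM in WT, and Cxcr5, its homing receptor, at 5.67 and 5.26 CPM, low levels beside Nrn1. The 2 that rose were Tox, by 0.23, and Tbc1d4, by 0.45 (edgeR adjusted p = 0.0199 and 0.0476). Their calls were lost without any 1 of 3 and of 7 libraries (edgeR adjusted p up to 0.0635 and 0.138).

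Anergy genes went both ways. Of 30 tested, 7 fell, 3 rose and 20 did not pass, with a median of 0.06. The share called was 33.3%, beside 15.8% of all genes tested, and nothing is read from it, as the list was chosen with earlier results known. Nfatc2, which encodes the calcium-dependent factor NFAT1, fell by 0.47 (SE 0.06, edgeR adjusted p = 0.00107), and the ubiquitin ligase adaptor gene Ndfip1 and the diacylglycerol kinase gene Dgkz were at -0.20 each. The ubiquitin ligase gene Nedd4 rose by 0.71 (SE 0.15, edgeR adjusted p = 0.00978) and the ligase gene Itch by 0.11. Leaving out cKO 6 ended the call of Dgkz (edgeR adjusted p = 0.0511), and leaving out any 1 of 7 libraries ended that of Itch. The fall counts Izumo1r and Nt5e again. Without cKO 6, 1 member rose and 3 fell, while calls over all genes also dropped, to 531 higher and 732 lower.

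WT 1 was the highest WT library in Egr2, Egr3 and Nr4a3, but not in Nrn1, and the lowest WT library in Il2ra. Egr3, an early factor linked to anergy, was at 53.9 to 71.2 CPM in cKO, while WT 1 held 145 CPM and the other WT libraries 35.1 to 59.5 CPM. Egr2, its relative, was at 21.05 to 31.8 CPM in cKO, against 42.1 CPM in WT 1 and 14.4 to 26.1 CPM in the other WT libraries. For Nr4a3, an orphan nuclear receptor gene, the levels were 529 to 915 CPM in cKO, 689 CPM in WT 1 and 170 to 370 CPM in the other WT libraries. Among the WT libraries the Nrn1 level of WT 1, 28.3 CPM, was below only that of WT 4, 31.4 CPM. The log2 fold change of Nrn1 without WT 1 was 1.95. Whether Nrn1 follows these genes was not tested.

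Leaving out WT 1 changed the count for activity-regulated and immediate early genes, the class in which neuronal Nrn1 is placed. Of 38 tested members, 2 rose, 2 fell and 34 had no call, with a median of 0.10. Calls made up 10.5% of the list and 15.8% of all genes tested. Plk2, a kinase gene, rose by 0.75 and Jun by 0.54, while Arc, a gene of synaptic plasticity, fell by 0.97 and Jund was at -0.56 (edgeR adjusted p = 0.0101, 0.0166, 0.000484 and 0.00365). Without WT 1, 8 rose, the further ones being Nr4a1, Nr4a2, Nr4a3, Fosb, Gadd45b and Btg2. Calls over all genes also grew without WT 1, to 1363 higher and 1570 lower, against 1028 and 1296 with all libraries. Nr4a3 was then at 1.53 (edgeR adjusted p = 0.00267), against 1.11 (adjusted p = 0.0546) with all libraries. Without WT 1 the anergy list had 7 members that rose, of which the 3 Nr4a genes are shared between the lists. Without cKO 6, Jun lost its call (edgeR adjusted p = 0.0563) and 1 activity-regulated gene rose, with 531 higher over all genes.

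**Figure D4:**
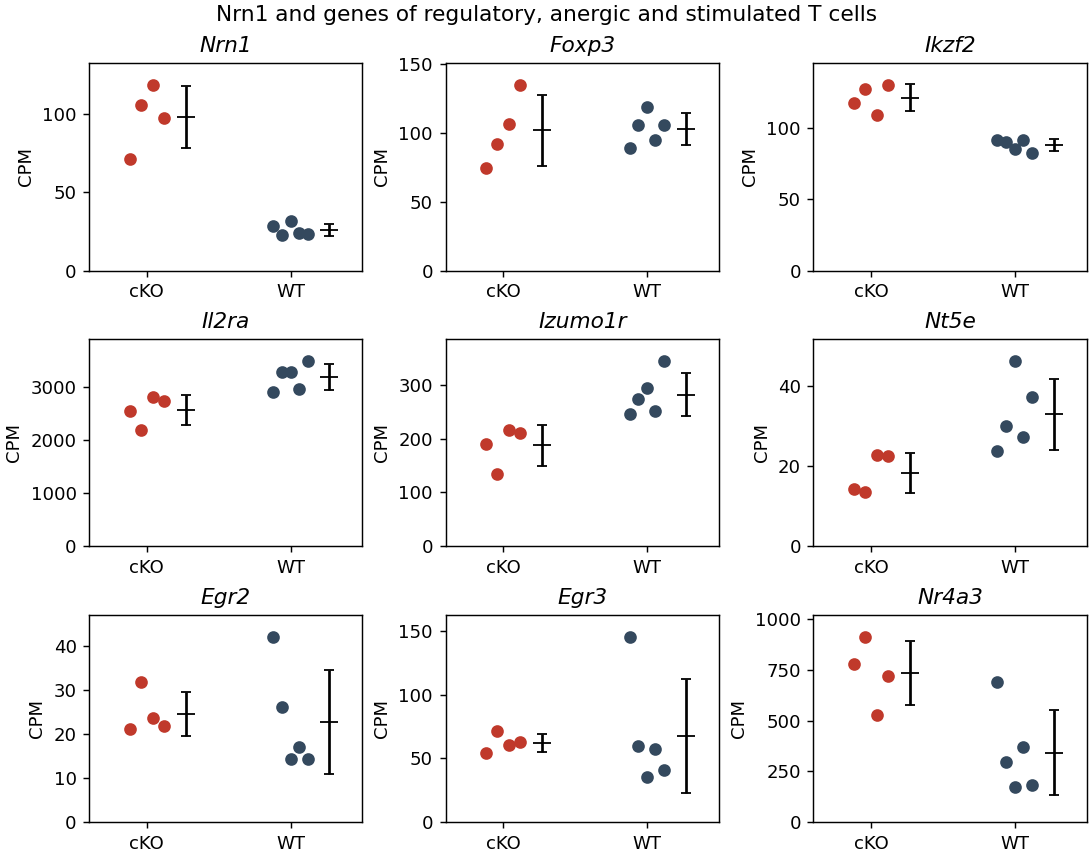
CPM of Nrn1 and 8 genes of regulatory, anergic or stimulated T cells, with 1 point per library (4 cKO on the left, 5 WT on the right of each panel) and the mean with SD beside the points. Nrn1 and Ikzf2 are higher in every cKO library than in any WT library, Il2ra, Izumo1r and Nt5e are lower, and in Egr2 and Egr3 the top WT point is WT 1.

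Genes reported to bind or relay neuritin in the nervous system were partly measured, as 11 of 19 were abundant enough to be tested. Of these, 3 rose, 1 fell and 7 had no call, with a median of 0.06. Calls made up 36.4% of the list and 15.8% of all genes tested. The list was chosen with earlier results of these data known, so nothing is read from its share. Neurl3, of the Neuralized family of ubiquitin ligases, had 23.1, 18.1, 22.5 and 24.6 CPM in cKO 2, 6, 7 and 8, and from 46.7 to 59.2 CPM in WT. It was 59.9% lower in cKO (log2 -1.32, SE 0.09, edgeR adjusted p = 2.89e-05). The report of binding concerns Neuralized itself, and Neurl4 was at 52.5 CPM in cKO and 49.4 CPM in WT. The insulin receptor gene Insr rose by 0.20 (SE 0.05, edgeR adjusted p = 0.0171), at 36.7 CPM in cKO and 31.8 CPM in WT, but lost its call without cKO 6 (adjusted p = 0.0580). Igf1r, the related receptor for insulin-like growth factor, rose by 0.36 (SE 0.07, edgeR adjusted p = 0.00580). Gria3, a subunit of AMPA glutamate receptors, rose by 1.18 (SE 0.19, edgeR adjusted p = 0.00320), with 8.80 CPM ± 1.55 (SD, n = 4) in cKO and 3.88 CPM ± 1.19 (SD, n = 5) in WT. Irs2, an adaptor of both insulin-type receptors, was at 23.9 CPM in cKO and 23.6 CPM in WT. Without WT 1, WT 3 or cKO 2, a further gene of the list, the calcium channel gene Cacna1d, also fell.

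Of 8 genes of the table within 1000000 bases, 5 were abundant enough to be tested, and 0 passed in edgeR, in DESeq2 or in limma-voom, with 0 at an unadjusted p below 0.05 in edgeR. The nearest of these on either side were Fars2, described above, and F13a1, which encodes the A chain of coagulation factor XIII, 132047 bases away, at 1.04 CPM in both genotypes (log2 -0.01, SE 0.34, edgeR adjusted p = 0.994). Gm30177, annotated on the opposite strand, also overlaps Nrn1, with 0 shared exonic bases, but has no counts to compare here. Without WT 1, Cdyl, a gene for a chromodomain protein 851298 bases away, passed at 0.15 (edgeR adjusted p = 0.0489).

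Genes whose log2 CPM followed Nrn1 most closely over the 9 libraries, among 13200 others with a mean of at least 1 CPM, had far smaller differences. The 6 highest Pearson correlations were those of Arhgap5, Zfp280d, Scai, Chd9, AI987944 and Ick, from 0.988 to 0.972. Arhgap5 was at 33.5 CPM ± 0.723 (SD, n = 4) in cKO and 30.3 CPM ± 0.495 (SD, n = 5) in WT, and Chd9, a chromatin remodeller gene, at 82.4 CPM ± 1.88 and 65.6 CPM ± 1.95. The lowest were those of Lsm4, Tmem214 and Cobll1, at -0.993, -0.985 and -0.984. Lsm4, a gene of RNA splicing and decay, was at 138, 129, 127 and 131 CPM in cKO 2, 6, 7 and 8, and from 147 to 153 CPM in WT. Because the genotypes differ in Nrn1, such values mostly order genes by the tightness of their own genotype difference. After the genotype means were removed, the 6 genes named as highest had correlations from 0.492 (Ick) to 0.879 (Arhgap5). Lsm4, Tmem214 and Cobll1 were then at -0.979, -0.753 and -0.685. These genes were picked over the same 9 libraries, which favours such values. Among all 13200 genes, the 6 highest after that removal were Gm14896, Ino80d, Prepl, Unkl, Immp1l and Alg13, from 0.953 to 0.930. With 9 libraries and this many genes, the values describe these libraries only.

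The summed markers of other cell types were compared by library. The natural killer list summed to 52.7 CPM in cKO 2, the cKO library with the lowest Nrn1, to 14.5 to 21.1 CPM in the other cKO libraries and to 8.13 to 21.5 CPM in WT. The plasma cell list was lower in cKO (145 to 216 CPM against 256 to 328 CPM in WT) through Xbp1, a gene of secretory stress that T cells also use, and 1 of its 4 tested genes fell. The pair of CD8 genes was higher in cKO (15.1 to 19.1 CPM against 11.9 to 15.1 CPM in WT), of which 1 rose. The neuron and glia list ran from 198 to 228 CPM in cKO and from 199 to 223 CPM in WT, nearly all of it Mbp, which lymphocytes also transcribe. The stroma and vessel list ran from 84.5 to 106 CPM in cKO and from 96.8 to 119 CPM in WT, mostly Pecam1. For macrophages the sums were 17.6 to 21.4 CPM in cKO and 14.9 to 19.5 CPM in WT with C1qa and C1qb at 0, for dendritic cells 6.15 to 10.5 and 5.10 to 9.22 CPM with Clec9a at 0, for B cells 4.83 to 7.72 and 4.67 to 9.34 CPM, and for gamma-delta T cells 2.82 to 4.34 and 3.18 to 4.23 CPM. Neutrophil, mast cell and erythroid lists stayed at or below 1.03 CPM in every library, with S100a8, S100a9, Ly6g, Ms4a2, Mcpt8, Hbb-bs and Hba-a2 at 0. The part of the natural killer, plasma cell and CD8 genes in the Nrn1 levels was not tested.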

How the data were processed

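RNA of 9 CD4+ T cell samples, 4 cKO and 5 WT, was sequenced from stranded KAPA libraries, per the labels. The authors deposited 1 table of raw counts per Ensembl gene ID, not normalized, and the submitters' processing notes name bcl2fastq 2.17 and mm10. How reads were aligned, counted, assigned by strand and annotated is not given in the sources used here. Columns were matched to samples by title, with 0 columns of no sample, and no 2 replicates agreed within sampling noise (chi-square per gene of at least 3.52).

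Counts were tested in R 4.3.3 by edgeR 4.0.16 (quasi-likelihood), with TMM scaling, filterByExpr, no covariate and Benjamini-Hochberg adjusted p below 0.05 over all 14693 genes tested, two-sided. CPM use the TMM-adjusted totals of the tested genes, and log2 CPM a prior count of 2. Symbols, positions and merged exon lengths came from GENCODE M21 on mm10.

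Alternatives were DESeq2 size factors, upper-quartile or no composition scaling, other count filters, DESeq2 1.42.0, limma-voom (limma 3.58.1), leaving out each library, and ratios to CD3 counts. All 3 tools were tested on simulated data. Nrn1 and the gene lists were chosen with earlier results of these data known. By rule, named genes were the called list members with the smallest adjusted p, the most abundant members, rank neighbours, nearest genes, those most correlated with Nrn1 and 10 genes tied to neuritin by earlier knowledge. Genes named for a call without WT 1, Kit, Ly6a, Cacna1d, Nr4a3, Cd24a and Efna4 were named after their values were seen. 1 member of the anergy list is counted but not reported by name here.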

Additional observations from a re-analysis of the deposited data

Results flagged for a closer look

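In 8 of 220 comparisons of 1 gene within 1 genotype, a library lay far from the others by Dixon's ratio at the 95% level, against about 1 in 20 by chance. None of them was in Nrn1. WT 1 was highest in Egr3, at 145 CPM against 35.1 to 59.5 CPM in the other WT libraries. In cKO 6, Cd69 was at 161 CPM against 104 to 107 CPM in the other cKO libraries, and Tnfrsf1b at 87.8 CPM against 96.6 to 97.8 CPM. In cKO 2, Entpd1 was at 1.98 CPM against 2.61 to 2.64 CPM and Klrk1, a receptor gene of natural killer cells, at 9.36 CPM against 1.54 to 2.64 CPM in the other cKO libraries. Klrk1 was at 0.573 CPM in WT 9 against 1.43 to 1.68 CPM in the other WT libraries. In cKO 7, Zbtb46 was at 2.06 CPM against 3.16 to 3.19 CPM, and Pigt at 87.0 CPM against 85.3 to 85.4 CPM in the other cKO libraries.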

How the results depend on the processing

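No paired analysis was possible because the genotypes share no replicate number. The log2 fold change of Nrn1 was 1.90 to 1.94 under the other scalings, filters and tools, 2.07 as a ratio to CD3 chain counts, and 1.82 to 2.04 with 1 library left out. Its surface rank was 59 in cKO and 97 in WT by CPM without division by length, and 40 to 48 in cKO and 86 to 88 in WT with 1 library left out.

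With 1 library left out, 531 to 1363 genes rose, against 1028 with all, and 732 to 1570 fell, against 1296. Without cKO 6 the numbers were 531 and 732. For the lists these ranges were 2 to 7 that rose and 8 to 13 that fell for GPI-anchored proteins, 0 to 2 and 0 to 3 for anchor synthesis, 0 to 4 and 0 to 2 for follicular genes, 1 to 7 and 3 to 7 for anergy, 1 to 8 and 2 to 3 for activity-regulated genes, 2 to 3 and 1 to 2 for neuritin partners, 1 to 1 and 6 to 11 for regulatory T cell genes, and 0 to 1 and 0 to 0 for genes near Nrn1. In anchor synthesis 1 gene rose with no count filter and 1 fell with upper-quartile scaling. Among follicular genes 1 rose in limma-voom, and 1 fell with no count filter and 1 in DESeq2. The cause was not tested.

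Signs turned in genes that passed no test. Egr3 was at 0.061 in limma-voom and Foxp3 at 0.00034 with upper-quartile scaling. With 1 library left out, log2 changes ran from -0.041 to 0.12 for Bcl6, -0.13 to 0.26 for Cxcr5, -0.047 to 0.45 for Egr2, -0.29 to 0.37 for Egr3, -0.18 to 0.11 for Foxp3, -0.089 to 0.039 for Ier2 and -0.030 to 0.098 for Irs2.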
